A study of Homo sapiens with 9 samples.

Results

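The genes described here are the markers by which macrophages are sorted into an inflammatory M1 type and an alternatively activated M2 type. They were chosen by name: 40 gene symbols, of which 17 (CD80 to ICAM1) are M1-type and 23 (CD163 onward) are M2-type. Of the 40 symbols, 38 had an entry among the 16222 genes of the deposited tables, all 17 of the M1 type and 21 of the M2 type. ARG1, the urea-cycle enzyme arginase, and LYVE1, a hyaluronan receptor, had no entry under these symbols. The cells were THP-1, an established human monocytic leukaemia line labelled as wild type, and RNA was measured by bulk RNA sequencing. Every group had first received PMA, a phorbol ester that makes these cells adhere and take on macrophage features. The control group was then given PBS, the LPS group was given lipopolysaccharide (LPS) of the Gram-negative outer membrane, and the LPS_ABS group was given LPS and ABS. What ABS stands for is not written out in the labels, the series title names apoptotic bodies and macrophage polarization, and no dose or time was given in the sources used here. Each of the 3 groups had 3 libraries. No label says that the libraries came from separate cultures, so each p-value reflects the spread among 3 samples a group that may be technical.

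M1 activation is the response to interferon gamma and to bacterial products such as LPS. It runs through JAK kinases, and through TLR4 and NF-kB, and turns on antigen presentation, chemokines that call T cells, and guanylate-binding proteins (GBPs), large GTPases that attack intracellular pathogens. M2 activation is the response to IL-4 and IL-13 through STAT6, and related states follow IL-10 and glucocorticoids. It is known by lectin and scavenger receptors, chemokines of allergic and tissue-repair responses, 15-lipoxygenase and matrix proteins, and PPARG is among the transcription factors that sustain it.

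The libraries held between 38506162 and 41679412 counts. Libraries of 1 group correlated at 0.972 to 0.990 on the log scale, and none was a copy of another. Of the 10 macrophage identity markers, 9 were above a mean of 1 FPKM (a level scaled by gene length and by the library's total count), among them CD68 at 152 to 202 FPKM and CD14 at 11.2 to 44.2 FPKM. The exception was MERTK, an efferocytosis receptor, at 0.194 to 0.827 FPKM. The summed identity markers lay at 960 to 1036 FPKM in the control libraries, 1106 to 1201 in the LPS libraries and 1142 to 1340 in the LPS_ABS libraries, and their part in the results below was not tested. Markers of T cells (2 of 6 with an entry), fibroblasts (6 of 8) and chondrocytes (4 of 6) each summed to under 1 FPKM in every library. Dendritic cell markers (8 of 10 with an entry) summed to 18.6 to 20.9 FPKM in control, 31.1 to 34.0 in LPS and 19.3 to 35.5 in LPS_ABS libraries, with BATF3 (7.12 to 28.7 FPKM), FLT3 (3.68 to 9.70) and ZBTB46 (1.02 to 1.75) above 1 FPKM. Endothelial markers (5 of 6) summed to 35.2 to 37.9 FPKM in control, 46.9 to 48.8 in LPS and 29.7 to 42.9 in LPS_ABS libraries, nearly all of it PECAM1 (29.5 to 48.7), and B cell markers (4 of 5) to 3.67 to 7.74 FPKM, led by CD79B (1.30 to 5.23). The dendritic cell and endothelial sums did not overlap between LPS and control, and their part in the results, CD209 included, was not tested. In bulk RNA, fewer cells of a type and less RNA per cell cannot be told apart.

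The dependence of expression on GC content moved with the groups. Each gene's log2 level was taken as its deviation from that gene's mean over all 9 libraries. Per 10 percentage points of transcript GC content, this deviation changed by -0.15 ± 0.02 in control, -0.15 ± 0.14 in LPS and 0.30 ± 0.07 in LPS_ABS libraries (mean ± SD, n = 3). The slopes compare libraries with each other, and their signs say nothing of how the level itself depends on GC content. The tested M1-type genes had a median GC content of 42.8% against 50.5% for the M2-type genes and 49.2% for all genes tested. Fold changes of LPS_ABS are therefore given before and after a correction that removes the trend from each library, and "after correction" refers to it throughout. A gene is called where the adjusted p of edgeR's quasi-likelihood test (Benjamini-Hochberg over all 12970 genes tested) was under 0.05.

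Detection came first. Of the 38 genes with an entry, 30 had counts in every library, 15 of each type. By mean FPKM, the measure that can be compared between genes, 16 reached 1 FPKM (10 M1-type and 6 M2-type) and 7 reached 10 FPKM. The latter were FCGR1A (107 FPKM), ICAM1 (47.7), CD38 (29.2), CD40 (10.4) and SOD2 (10.1) of the M1 type, and CHI3L1 (3060.4) and CD209 (16.2) of the M2 type. A filter on low counts left 29 genes for testing, 15 M1-type and 14 M2-type. The 9 with an entry that were not tested were CD86, a costimulatory ligand, and CXCL9, a T cell chemokine, of the M1 type, and CD200R1, CCL17, CCL18, STAB1, MSR1, CLEC10A and IRF4 of the M2 type. CD200R1 had 3 counts in LPS replicate 2 and none elsewhere, and CCL18 had 4 counts in control replicate 1 and none elsewhere. CCL17, which lies near CCL22 with 1 protein-coding gene between them, had 6 counts over 4 libraries. At these counts no difference between groups was detectable. MSR1, a scavenger receptor, stayed at or under 0.0825 FPKM in every library. So did STAB1, an endocytic receptor, at most 0.0365 FPKM, and IRF4, a transcription factor of the IL-4 response, at most 0.0484 FPKM. CD86 reached 0.209 FPKM in LPS replicate 1, CXCL9 reached 0.156 FPKM in the same library, and CLEC10A, a galactose-type lectin, reached 0.312 FPKM in LPS_ABS replicate 2.

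**Figure D1:**
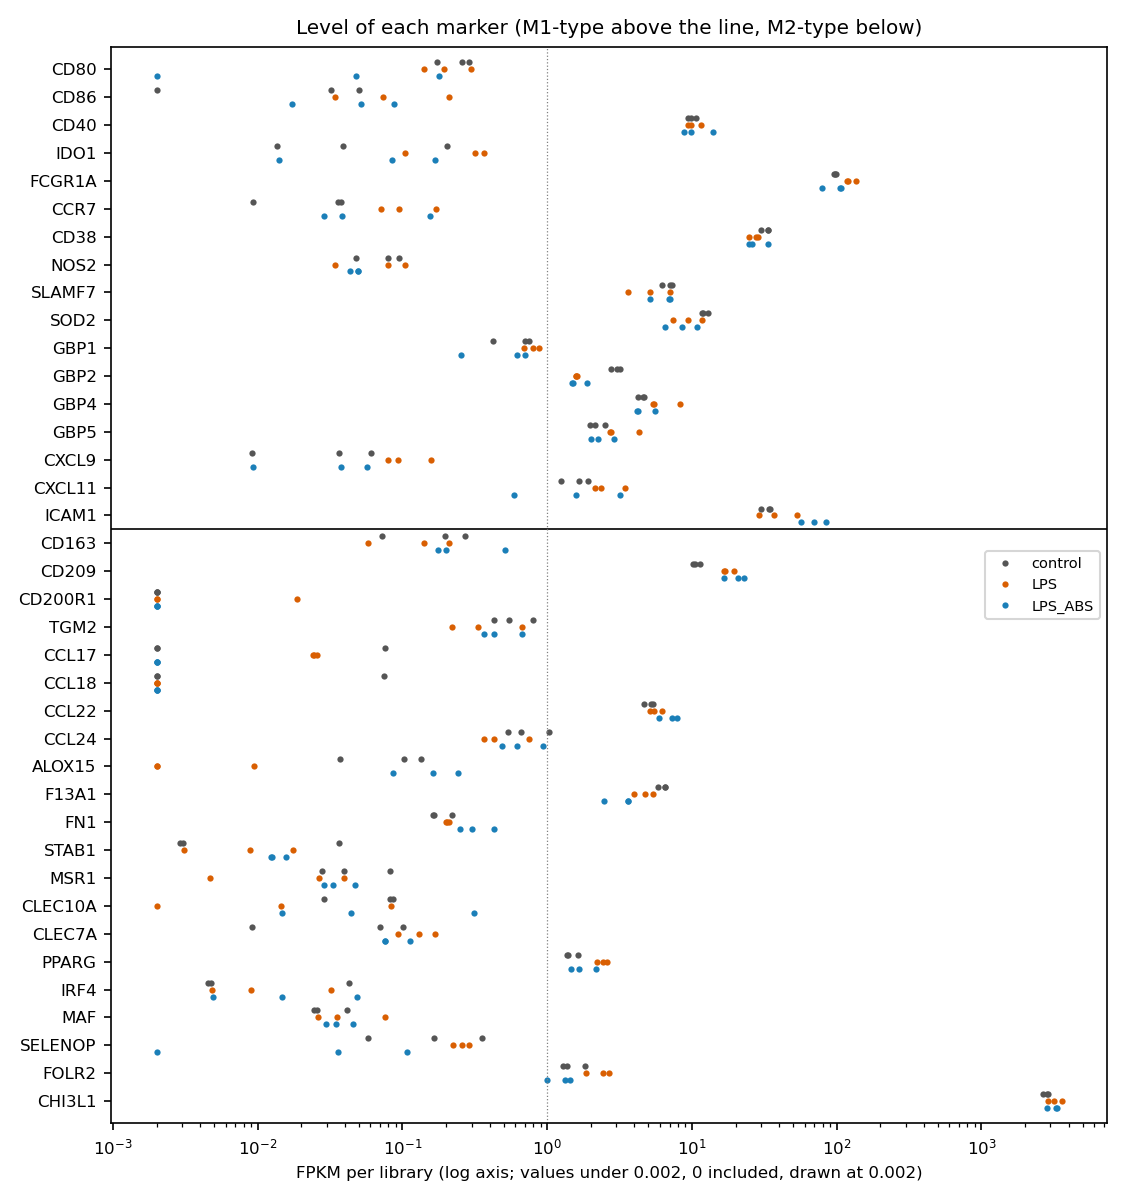
Level of each of the 38 markers with an entry, in FPKM on a log axis, with 1 point per library coloured by group and M1-type genes above the line. CHI3L1 stands at the right edge near 3060.4 FPKM, while 22 of the markers average under 1 FPKM, left of the dotted line.

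CHI3L1, a secreted chitinase-like glycoprotein (YKL-40), outweighed every other marker. Its mean of 3060.4 FPKM ranked 10 among the 16222 genes, and it took 0.467% to 0.627% of all counts in a library. It made up 98.6% to 99.1% of the summed FPKM of the M2-type genes. In CPM, counts scaled to a common library size and compared only within a gene, its levels were 4787, 4847 and 4575 CPM in control, 4791, 5493 and 6318 in LPS, and 6369, 5135 and 5952 in LPS_ABS libraries. The LPS range overlapped both others, and control lay below LPS_ABS. No comparison of all 9 libraries called it: log2 fold changes were 0.22 for LPS against control (adjusted p = 0.218), 0.07 for LPS_ABS against LPS (adjusted p = 0.648; -0.22 and 0.2 after correction) and 0.30 for LPS_ABS against control (adjusted p = 0.0628; 0.01 and 0.977 after correction). Before correction, that last value passed without LPS replicate 1 (adjusted p = 0.0418) or LPS_ABS replicate 2 (0.0458). Without CHI3L1, the M2-type genes summed to 26.0 to 40.5 FPKM, and the M1-type genes to 200.5 to 262 FPKM. The ratio of these sums was 7.16 to 8.02 in control, 5.78 to 7.67 in LPS and 5.69 to 7.39 in LPS_ABS libraries, with overlapping ranges.

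Over the 29 tested genes, 12 were called in at least 1 comparison before or after correction, 5 of the M1 type (GBP2, GBP4, GBP5, CD38 and ICAM1) and 7 of the M2 type (CD209, PPARG, ALOX15, CCL22, F13A1, FN1 and FOLR2). The other 17, 10 of the M1 type and 7 of the M2 type, were never called in these 2 fits. The matching share of all genes over these comparisons and fits was not computed. Single comparisons called 14.9% to 35.6% of all genes before correction and 9.19% to 21.1% after it. The 12 genes are thus a list to describe and no excess over all genes is claimed. Each group enters 2 of the 3 comparisons, so the comparisons share libraries and their values are given side by side.

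**Figure D2:**
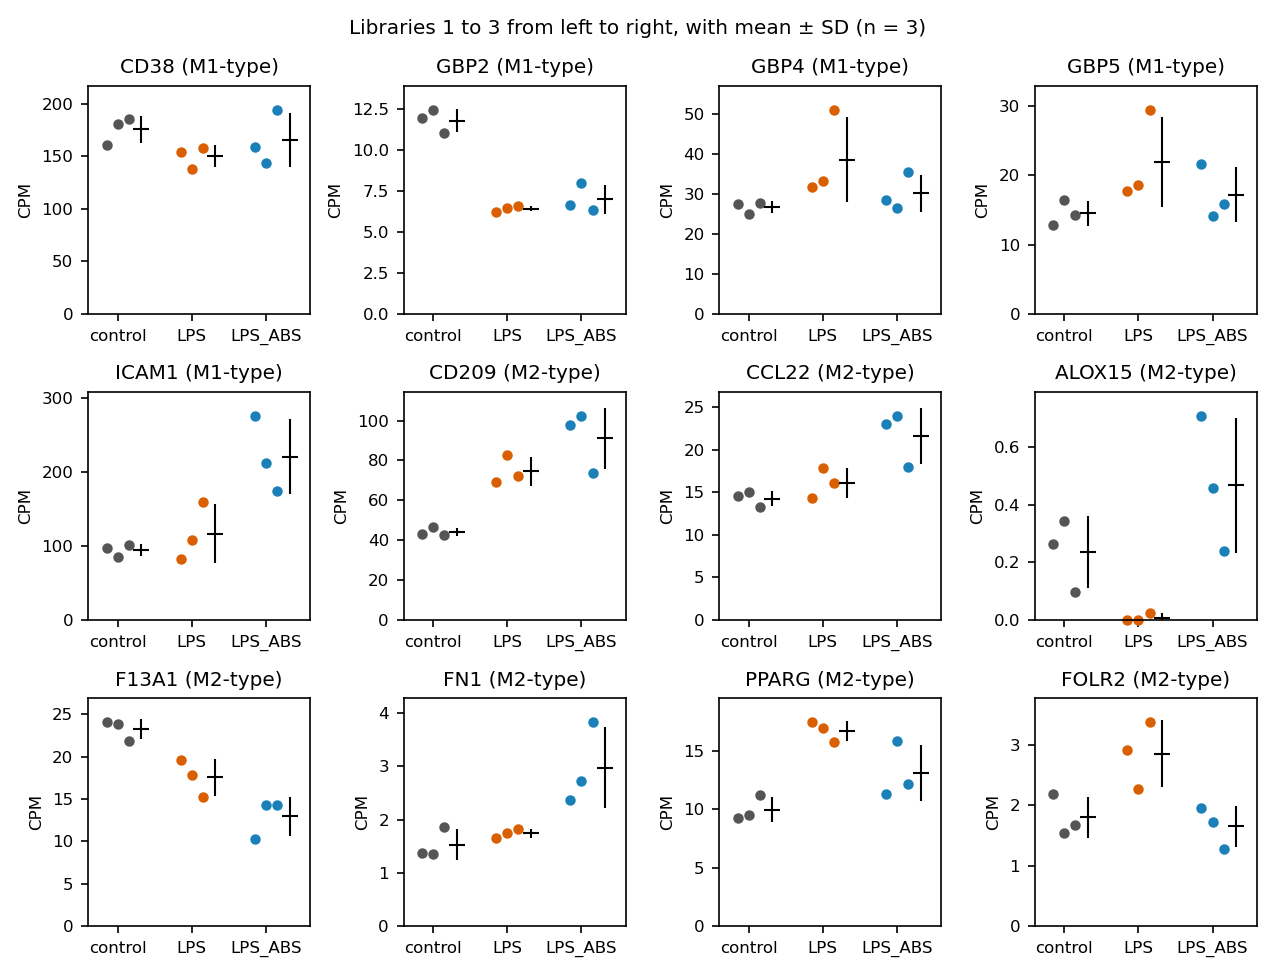
Level of the 12 called markers in each library, in CPM before GC correction, with replicates 1 to 3 from left to right and the mean ± SD of each group (n = 3). GBP2 is high in the 3 control libraries, CD209 is low in them, ICAM1 is highest in the 3 LPS_ABS libraries, and ALOX15 is near 0 in the 3 LPS libraries.

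LPS against control asks what the bacterial stimulus did to the markers. Of the 15 tested M1-type genes, none rose and 1 fell, GBP2, while across all genes tested 14.9% were called, 7.71% higher and 7.19% lower. Of the 14 tested M2-type genes, 2 rose (CD209 and PPARG) and 1 fell (ALOX15). ALOX15 passed the filter on low counts only through the groups where it is high, control and LPS_ABS. In an edgeR fit of LPS and control alone, 13 M2-type genes were tested, of which 2 rose and 1 fell. The fall there was F13A1 (adjusted p = 0.037) and not ALOX15. At an unadjusted p under 0.05 there were 5 of the 15 M1-type and 5 of the 14 M2-type genes, beside 3817 of all 12970 genes tested. DESeq2 called 3 M1-type genes where edgeR called 1, and it also called more of all genes than edgeR did. No excess of markers over all genes is read from either count. The median log2 fold change was 0.31 for the M1-type and 0.21 for the M2-type genes, beside -0.03 for all genes. After correction, GBP4 and GBP5 also passed, which made 2 M1-type genes up and 1 down, with 21.1% of all genes called. With each library left out in turn and no correction, the M1-type count reached 3 without LPS_ABS replicate 3, and the M2-type count dropped to 1 without control replicate 1 or 2.

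The guanylate-binding protein genes split under LPS, GBP2 being lower and GBP4 and GBP5 higher. In the main edgeR fit these last were called only after correction. GBP2 (gene 2634 in the tables) stood at 11.9, 12.4 and 11.0 CPM in control, 6.23, 6.48 and 6.56 in LPS, and 6.65, 8.0 and 6.35 in LPS_ABS libraries. All control libraries were above all others, and the LPS and LPS_ABS ranges overlapped. GBP2 fell by 0.87 ± 0.16 on the log2 scale under LPS (SE, edgeR adjusted p = 0.00399, 1.83-fold lower) and was lower by -0.75 ± 0.16 in LPS_ABS against control (adjusted p = 0.00504). Both calls held after correction, at -0.83 (adjusted p = 0.00283) and -0.63 (adjusted p = 0.0199). LPS_ABS against LPS gave 0.12 (adjusted p = 0.571; 0.20 and 0.427 after correction).

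GBP4 (gene 115361) and GBP5 (gene 115362), the latter a scaffold for inflammasome assembly, lay the other way. GBP4 was at 27.5, 25.1 and 27.7 CPM in control, 31.7, 33.3 and 50.9 in LPS, and 28.5, 26.6 and 35.4 in LPS_ABS libraries. GBP5 was at 12.9, 16.4 and 14.3 CPM in control, 17.8, 18.6 and 29.4 in LPS, and 21.7, 14.2 and 15.8 in LPS_ABS libraries. In both genes every LPS library was above every control library, replicate 3 of LPS stood highest, and LPS_ABS overlapped both groups. LPS against control gave 0.53 ± 0.19 for GBP4 (adjusted p = 0.0749) and 0.59 ± 0.22 for GBP5 (adjusted p = 0.089), which did not pass. GBP4 passed in edgeR without LPS replicate 1 (adjusted p = 0.0477) or LPS_ABS replicate 3 (0.0482). It also passed without correction in edgeR with no filter (0.0473), with these 2 groups alone (0.0488) or with the replicate block (0.046). In DESeq2 without correction GBP4 (adjusted p = 0.041) and GBP5 (0.0452) both passed. After correction the values were 0.58 (adjusted p = 0.0457) and 0.63 (adjusted p = 0.0389). LPS_ABS against control was called after correction only, at 0.69 for GBP4 (adjusted p = 0.0314) and 0.87 for GBP5 (adjusted p = 0.014), against 0.17 and 0.24 before. Without LPS_ABS replicate 3, a check chosen after seeing the data, GBP4 after correction was 0.53 (adjusted p = 0.0653) in that comparison. GBP1, the remaining member of the family here, was at 0.754 to 2.46 CPM over all libraries and was not called.

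The count ratio of GBP2 to GBP5 within a library, which no library scaling can alter, was 0.755 to 0.922 in control, 0.223 to 0.350 in LPS and 0.306 to 0.564 in LPS_ABS libraries. Control did not overlap the other groups. The log2 ratio differed by -1.43 between LPS and control and by -0.98 between LPS_ABS and control, each with a two-sided exact permutation p of 0.1, the smallest that 3 libraries against 3 allow. Between LPS_ABS and LPS it differed by 0.45 (two-sided exact permutation p = 0.3). GBP2 to GBP4 gave log2 differences of -1.37, -0.92 and 0.45. Both ratios set the gene that was lower under LPS over a gene that was higher in the same libraries. They therefore restate the split, and the permutation p-values are no separate support for it. These ratios carry no GC correction, and GC content was 46.9% for GBP2, 39.5% for GBP5 and 41.7% for GBP4. Differences that involve LPS_ABS can therefore hold the GC trend. After correction, LPS_ABS against LPS was 0.20 for GBP2 and 0.25 for GBP5. GBP1 and GBP2 are neighbours on chromosome 1 with no protein-coding gene between them, and so are GBP4 and GBP5 (RefSeq). GBP2 shares exon sequence with GBP7 on its strand, so reads there may have been split or dropped by the counting.

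Promoter sequences were searched where an entry was available, which was the case for GBP1 and GBP4 but not for GBP2 and GBP5. The GBP split can therefore not be described from them. RefSeq entries (GRCh38.p14) were found for 25 of the 40 symbols, and 250 bases before each start were searched on both strands for the letters of 3 motifs. These were the interferon gamma-activated site GAS (TTCNNNGAA), the interferon-stimulated response element ISRE (GAAA, any 2 bases, GAAA) and an NF-kB site (GGGA, any 2 bases, TTCC). Across all 35116 promoters of the table, 6.57% held the GAS, 3.02% the ISRE and 1.4% the NF-kB letters, and the patterns can overlap. Among the 25 genes, 4 held GAS (FCGR1A, CXCL11, ICAM1 and CCL24), 4 held ISRE (GBP1, CXCL9, CD163 and CD209) and 2 held NF-kB letters (GBP4 and CXCL11). These 25 genes had 35 starts, and a gene was counted where any of its starts matched. Such counts per gene cannot be set directly against the shares per promoter. A match is a description of letters and not a binding site, and a gene without a match may hold a site with other letters. CD38, PPARG (6 starts), CCL22, F13A1 and FN1, also called, held none in this window. The called genes GBP2, GBP5, ALOX15 and FOLR2 had no entry and were not searched. The called genes with a match (GBP4, ICAM1 and CD209) are printed here, with GBP1 to compare within the GBP family, 5′ to 3′ on the gene's strand and with the motif in capitals. GBP1 is chr1:89065209-89065458 on the minus strand with an ISRE at 127 to 118 bases before the start, and GBP4 is chr1:89198943-89199192 on the minus strand with an NF-kB match at 45 to 36. ICAM1 is chr19:10270870-10271119 on the plus strand with a GAS match at 75 to 67, and CD209 is chr19:7747535-7747784 on the minus strand with an ISRE match at 82 to 73.
GBP1: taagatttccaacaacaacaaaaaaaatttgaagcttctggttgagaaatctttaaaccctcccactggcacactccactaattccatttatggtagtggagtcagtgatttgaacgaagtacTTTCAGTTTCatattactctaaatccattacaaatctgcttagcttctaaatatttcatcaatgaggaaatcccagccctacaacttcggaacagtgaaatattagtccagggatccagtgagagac
GBP4: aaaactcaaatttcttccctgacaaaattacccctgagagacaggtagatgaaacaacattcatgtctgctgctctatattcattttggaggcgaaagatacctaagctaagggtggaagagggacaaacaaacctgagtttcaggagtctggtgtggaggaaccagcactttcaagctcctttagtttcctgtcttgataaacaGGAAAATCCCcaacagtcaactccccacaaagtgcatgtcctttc
ICAM1: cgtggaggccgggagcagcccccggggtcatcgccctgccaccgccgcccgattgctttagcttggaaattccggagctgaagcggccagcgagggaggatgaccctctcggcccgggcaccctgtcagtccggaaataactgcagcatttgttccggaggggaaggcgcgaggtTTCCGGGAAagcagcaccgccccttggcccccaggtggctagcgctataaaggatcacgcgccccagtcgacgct
CD209: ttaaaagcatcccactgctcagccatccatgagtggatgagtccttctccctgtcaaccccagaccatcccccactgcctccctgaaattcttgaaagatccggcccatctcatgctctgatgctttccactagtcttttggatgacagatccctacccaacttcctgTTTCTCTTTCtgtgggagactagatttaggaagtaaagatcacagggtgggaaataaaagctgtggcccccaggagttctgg

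CD209 (DC-SIGN, gene 30835), a mannose-binding lectin receptor induced by IL-4, was the M2-type gene with the smallest adjusted p in LPS against control. It stood at 43.0, 46.5 and 42.9 CPM in control, 69.0, 82.7 and 72.2 in LPS, and 97.8, 102 and 73.6 in LPS_ABS libraries. Control lay below every other library, and replicate 3 of LPS_ABS fell within the LPS range. CD209 rose by 0.76 ± 0.14 on the log2 scale under LPS (adjusted p = 0.0048, 1.69-fold) and by 1.05 ± 0.15 in LPS_ABS against control (adjusted p = 7.52e-04, 2.07-fold). Both passed after correction, at 0.79 (adjusted p = 0.00283) and 0.94 (adjusted p = 0.00182). LPS_ABS against LPS was 0.29 (adjusted p = 0.131), or 0.42 (adjusted p = 0.0266) without LPS_ABS replicate 3. After correction these were 0.15 (adjusted p = 0.509) and 0.32 (adjusted p = 0.096). CD209 has a close relative whose reads could be shared with it.

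PPARG (gene 5468), the nuclear receptor of fatty-acid ligands, was at 9.25, 9.48 and 11.2 CPM in control, 17.4, 17.0 and 15.8 in LPS, and 11.3, 15.9 and 12.1 in LPS_ABS libraries. LPS did not overlap control, and LPS_ABS lay between them with replicate 2 at the lower edge of LPS. It rose by 0.75 ± 0.17 under LPS (adjusted p = 0.0117, 0.00489 after correction). Without control replicate 1 the adjusted p was 0.061 and without control replicate 2 it was 0.0593. LPS_ABS against LPS was -0.35 (adjusted p = 0.117; -0.05 after correction; -0.51 and 0.0441 without LPS_ABS replicate 2), and LPS_ABS against control was 0.40 (adjusted p = 0.0845, or 0.0387 without LPS_ABS replicate 1), called at 0.74 after correction (adjusted p = 0.0122).

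ALOX15 (gene 246), the 15-lipoxygenase that IL-4 and IL-13 induce in human monocytes, was the gene with the fewest counts among those called. Its counts were 11, 15 and 4 in control, 0, 0 and 1 in LPS, and 25, 17 and 9 in LPS_ABS libraries. LPS lay below both other groups, which overlapped each other. The summed counts, scaled for library size, were 29.6-fold higher in control than in LPS (95% exact counting interval 4.92 to 1208) and 57.5-fold higher in LPS_ABS than in LPS (9.87 to 2316.5). LPS_ABS exceeded control 1.94-fold (1.21 to 3.16). These intervals cover counting error only. ALOX15 was called lower in LPS against control (edgeR adjusted p = 0.0213) and higher in LPS_ABS against LPS (adjusted p = 0.00581), and after correction at 0.0157 and 0.0163. LPS_ABS against control was not called (adjusted p = 0.271, 0.528 after correction). ALOX15 passed the filter on low counts only through the groups where it is high. The LPS against control call was lost without control replicate 1 (adjusted p = 0.0593), control replicate 2 (0.0771) or LPS replicates 1 (0.0648), 2 (0.0719) or 3 (0.0501). Its mean level was 0.0858 FPKM, the lowest of the 12 called genes, followed by FN1 at 0.237 FPKM.

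LPS_ABS against LPS asks what ABS added to the stimulus. Of the 15 tested M1-type genes, 1 rose (ICAM1) and none fell, and of the 14 M2-type genes, 2 rose (ALOX15 and FN1) and 1 fell (FOLR2). ALOX15 is counted here although it passed the filter on low counts only through control and LPS_ABS. Across all genes tested 35.6% were called, 16.8% higher and 18.8% lower, beside 6.67% of the M1-type and 21.4% of the M2-type genes. The median log2 fold change was -0.35 for M1-type genes, 10 of 15 being negative, and 0.18 for M2-type genes, against 0.02 for all genes. After correction the medians were 0.11 for each type, with 6 of 15 M1-type genes negative and a median of 0.00 for all genes. Then 1 M1-type gene rose (CD38), 1 M2-type gene rose (ALOX15), 1 fell (FOLR2), and 6.67% of the M1-type and 14.3% of the M2-type genes were called, beside 9.19% of all genes. The negative M1-type median was thus not present after correction. Before correction, the M1-type count reached 3 without LPS_ABS replicate 1, and the M2-type count dropped to 1 without any 1 of the control libraries or without LPS replicate 1 or 3.

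**Figure D3:**
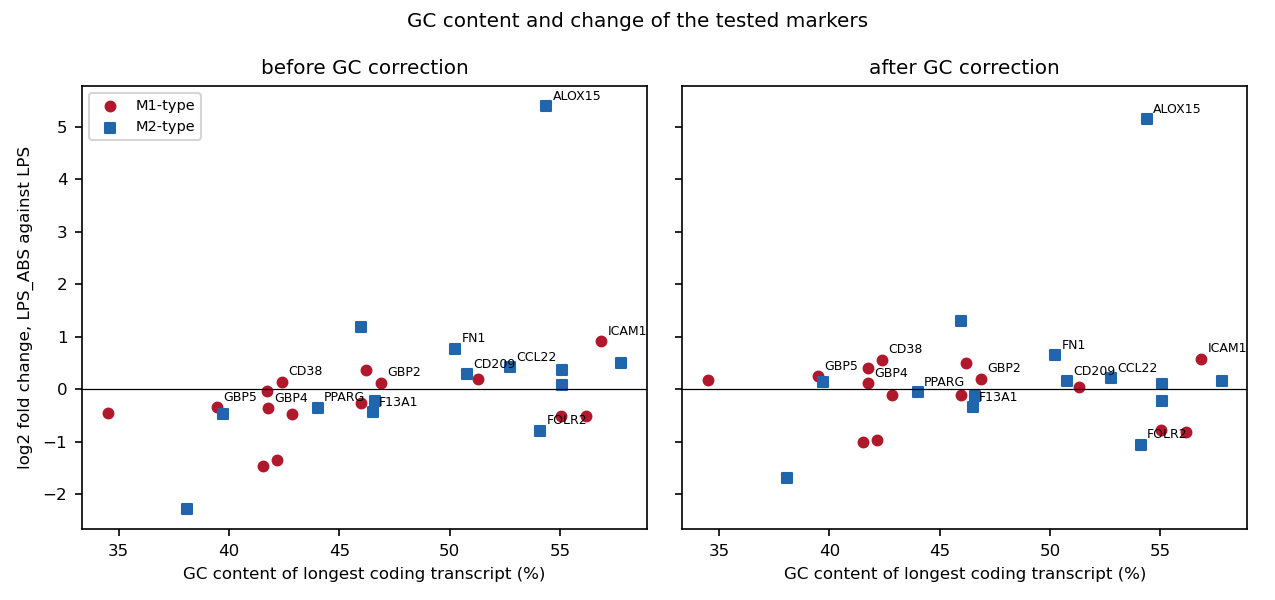
Log2 fold change of the 29 tested markers in LPS_ABS against LPS, plotted against the GC content of the longest coding transcript (%), before and after correction, with the named points called in some comparison. Before correction the median of M1-type genes is -0.35 and that of M2-type genes 0.18, and after it both are 0.11.

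ICAM1 (gene 3383), the adhesion molecule that binds leukocyte integrins, was at 96.9, 85.0 and 101 CPM in control, 82.5, 108 and 160.2 in LPS, and 275, 213 and 175 in LPS_ABS libraries. Every LPS_ABS library was above every other, and LPS overlapped control. It rose by 0.92 ± 0.22 against LPS (edgeR adjusted p = 0.0103, 1.89-fold) and by 1.23 ± 0.22 against control (adjusted p = 0.00241, 2.34-fold). After correction the difference from LPS was 0.58 (adjusted p = 0.0737), which no longer passed, and without LPS_ABS replicate 3 it was 0.72 (adjusted p = 0.0452). The difference from control passed after correction, at 0.89 (adjusted p = 0.0112). LPS against control was 0.31 (adjusted p = 0.389). Genes antisense to ICAM1 overlap it, and the strand setting of the counting was not given.

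CD38 (gene 952), an ectoenzyme that consumes NAD, was at 161, 181 and 185 CPM in control, 154, 138 and 158 in LPS, and 159, 144 and 194 in LPS_ABS libraries. LPS lay below control, and LPS_ABS spanned both. Before correction no comparison called it (0.14 in LPS_ABS against LPS, adjusted p = 0.417). After correction that value was 0.56 (adjusted p = 0.0195; 0.43 and 0.0373 without LPS_ABS replicate 3), and LPS_ABS against control went from -0.09 to 0.38 (adjusted p = 0.0638).

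FN1 (gene 2335), fibronectin, was at 1.37, 1.36 and 1.87 CPM in control, 1.65, 1.74 and 1.83 in LPS, and 2.38, 2.72 and 3.83 in LPS_ABS libraries. The LPS_ABS libraries were above all others. Against LPS it rose by 0.77 ± 0.28 (adjusted p = 0.045). The call was lost after correction (0.64, adjusted p = 0.123) and when any single library other than LPS_ABS replicate 1 was left out, at adjusted p of 0.0501 to 0.151. Against control it rose by 0.96 ± 0.28 (adjusted p = 0.0202, 0.0435 after correction), and the call was lost without control replicate 1 (0.0785), control replicate 2 (0.0767) or LPS_ABS replicate 3 (0.0621).

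FOLR2 (gene 2350), the folate receptor of resident and M2-type macrophages, was at 2.18, 1.54 and 1.67 CPM in control, 2.92, 2.27 and 3.37 in LPS, and 1.95, 1.72 and 1.28 in LPS_ABS libraries. The LPS libraries were above all others, and control overlapped LPS_ABS. It fell by 0.79 ± 0.28 in LPS_ABS against LPS (adjusted p = 0.0459), or by 1.06 after correction (adjusted p = 0.0394). That call is marginal: it was lost without each of 7 libraries in turn, the exceptions being LPS replicate 2 and LPS_ABS replicate 1, at adjusted p of 0.0582 to 0.151. LPS against control gave 0.66 (adjusted p = 0.134).

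LPS_ABS against control gives the effect of both agents together. Of the 15 tested M1-type genes, 1 rose (ICAM1) and 1 fell (GBP2), and of the 14 M2-type genes 3 rose (CD209, CCL22 and FN1) and 1 fell (F13A1). Among all genes tested 33.8% were called, 14.8% higher and 19% lower. The median log2 fold change was 0.12 for M1-type and 0.40 for M2-type genes, beside 0.05 for all genes. After correction, 3 M1-type genes rose (ICAM1, GBP4 and GBP5) and 1 fell, 3 M2-type genes rose (CD209, FN1 and PPARG) and 1 fell, and 13% of all genes were called. The corrected medians were 0.31 and 0.46, beside 0.02 for all genes. Before correction, 4 M1-type genes were called without LPS_ABS replicate 1.

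F13A1 (gene 2162), the A subunit of coagulation factor XIII and an IL-4 target in monocytes, was at 24.1, 23.8 and 21.9 CPM in control, 19.6, 17.9 and 15.3 in LPS, and 10.3, 14.3 and 14.3 in LPS_ABS libraries. The 3 groups did not overlap, with control highest and LPS_ABS lowest. It fell by 0.84 ± 0.17 in LPS_ABS against control (adjusted p = 0.00352, 1.79-fold lower), and by 0.71 after correction (adjusted p = 0.00764). The steps between neighbouring groups did not pass, at -0.40 for LPS against control (adjusted p = 0.122) and -0.44 for LPS_ABS against LPS (adjusted p = 0.0553; -0.34 and 0.137 after correction). Before correction, the former passed without LPS_ABS replicate 1 (adjusted p = 0.0493) and the latter without LPS_ABS replicate 3 (0.0466).

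CCL22 (gene 6367), a chemokine that binds CCR4 on T cells, was at 14.5, 15 and 13.3 CPM in control, 14.4, 17.8 and 16.1 in LPS, and 23.0, 23.9 and 17.9 in LPS_ABS libraries. LPS_ABS was above all others, its replicate 3 just above the highest LPS library. It rose by 0.60 ± 0.16 against control (adjusted p = 0.0133, 1.51-fold). After correction it was 0.39 (adjusted p = 0.0904), and 0.53 (adjusted p = 0.0101) when LPS_ABS replicate 3 was also left out. Without control replicate 3 and with no correction the adjusted p was 0.0535. LPS_ABS against LPS was 0.43 (adjusted p = 0.0508), and 0.54 (adjusted p = 0.0208) without LPS_ABS replicate 3. After correction these were 0.21 (adjusted p = 0.349) and 0.35 (adjusted p = 0.111).

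**Figure D4:**
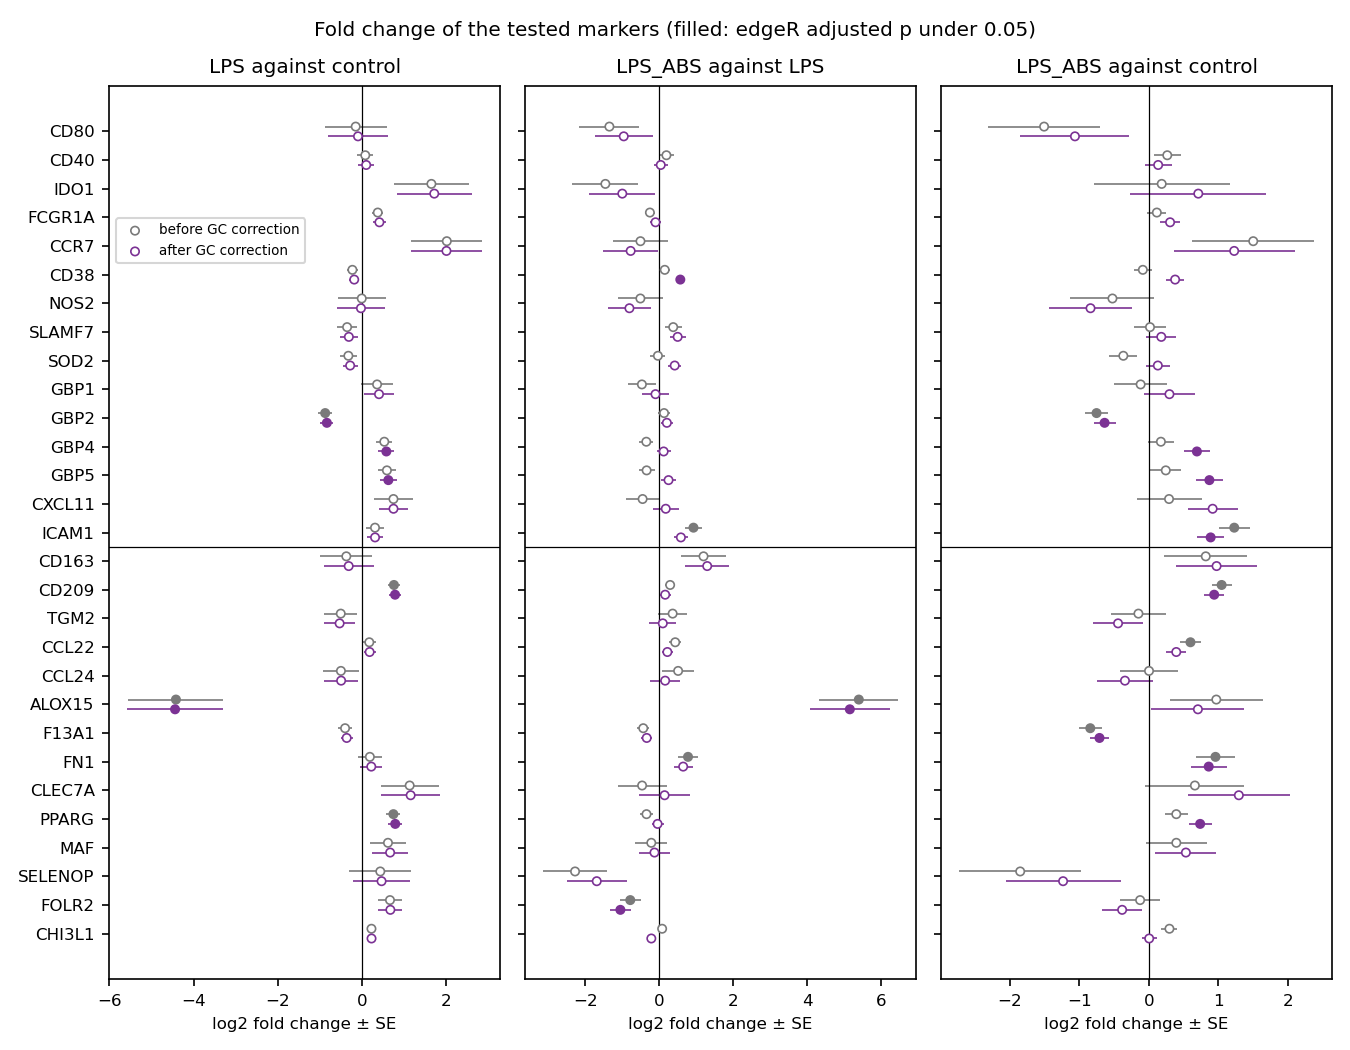
Log2 fold change ± SE of the 29 tested markers in the 3 comparisons, before (grey) and after (purple) correction, with filled points at adjusted p under 0.05 and M1-type genes above the line. GBP2 lies left of 0 and CD209 right of 0, filled, in both comparisons with control, and ALOX15 has the longest reach, at -4.42 and 5.39.

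The tested M1-type genes that were never called had edgeR adjusted p-values of 0.0835 or more before correction and 0.0629 or more after it. FCGR1A, the high-affinity IgG receptor, was the most abundant of them, at 127, 123 and 128 CPM in control, 174, 157 and 159.6 in LPS, and 156, 145 and 109 in LPS_ABS libraries. All LPS libraries exceeded all control libraries, with a log2 difference of 0.37 (adjusted p = 0.0835), which passed at 0.0171 without LPS_ABS replicate 3, at 0.0489 without LPS_ABS replicate 1 and at 0.0116 in a fit of these 2 groups alone. FCGR1A has near-identical copies whose reads could be shared. SOD2, the mitochondrial superoxide dismutase, ranged from 6.49 to 12.9 FPKM, CD40, the receptor of T cell help, from 8.85 to 14.0 FPKM, and SLAMF7, an activating receptor, from 3.61 to 7.33 FPKM. CXCL11, a CXCR3 ligand, ranged from 0.591 to 3.45 FPKM, and its libraries within LPS_ABS spread over 5.12, 2.42 and 0.904 CPM. CXCL11 in LPS_ABS against LPS was -0.46 (adjusted p = 0.46), 0.17 after correction (adjusted p = 0.784), and -1.21 (adjusted p = 0.0371) without LPS_ABS replicate 1 and without correction. Against control, LPS_ABS went the other way, at 0.29 (adjusted p = 0.645) and 0.92 after correction (adjusted p = 0.111). After correction without LPS_ABS replicate 3 that value was 1.22 (adjusted p = 0.0149). All LPS libraries exceeded all control libraries in CXCL11, at 0.75 (adjusted p = 0.315). SOD2 in LPS_ABS against control was -0.37 (adjusted p = 0.172), 0.13 after correction (adjusted p = 0.676), and -0.59 (adjusted p = 0.0339) without LPS_ABS replicate 1 and without correction.

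Several classical M1 markers were close to the limit of detection. NOS2, the inducible nitric oxide synthase, had 98 counts over all 9 libraries and at most 0.104 FPKM. IDO1, the tryptophan-degrading enzyme, had 15, 3 and 1 counts in control, 8, 28 and 23 in LPS, and 6, 1 and 12 in LPS_ABS libraries. CCR7, the lymph-node homing receptor, had 1, 4 and 4 counts in control, 8, 19 and 10 in LPS, and 3, 16 and 4 in LPS_ABS libraries. Every LPS library had more CCR7 counts than every control library, and the log2 difference of 2.01 ± 0.84 did not pass (adjusted p = 0.131). CCR7 passed the filter on low counts only through LPS and LPS_ABS libraries, so its difference from control is no support for a rise. CD80, a costimulatory ligand, had 28, 33 and 19 counts in control, 16, 22 and 32 in LPS, and 19, 5 and 0 in LPS_ABS libraries. Its LPS_ABS libraries disagreed among themselves, with a log2 difference from LPS of -1.35 ± 0.81 (adjusted p = 0.207; -0.97 and 0.441 after correction). Without LPS_ABS replicate 1 and without correction it was -3.03 (adjusted p = 0.0223), which rests on LPS_ABS counts of 5 and 0.

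The tested M2-type genes that were never called had adjusted p-values of 0.0561 or more before correction and 0.16 or more after it. CD163, the haemoglobin scavenger receptor, was at 0.0578 to 0.508 FPKM, and its differences of -0.37 for LPS against control and 1.19 for LPS_ABS against LPS had adjusted p-values of 0.739 and 0.141, the latter being 1.29 (adjusted p = 0.17) after correction. TGM2, tissue transglutaminase, was at 0.220 to 0.796 FPKM, CCL24, an eosinophil chemokine, at 0.365 to 1.03 FPKM, CLEC7A, the beta-glucan receptor, at 0.00909 to 0.168 FPKM, and MAF, a transcription factor of IL-10 expression, at 0.0245 to 0.0757 FPKM. SELENOP, the selenium carrier, had 31, 15 and 5 counts in control, 26, 20 and 22 in LPS, and 9, 3 and 0 in LPS_ABS libraries. LPS_ABS lay below LPS without overlap, and the log2 difference was -2.28 ± 0.87 (adjusted p = 0.0561). It was -1.70 after correction (adjusted p = 0.189), and -3.67 (adjusted p = 0.0205) without LPS_ABS replicate 1 and without correction. That last value rests on LPS_ABS counts of 3 and 0. SELENOP passed the filter on low counts only through the groups where it is higher, control and LPS. SELENOP overlaps CCDC152 on the opposite strand.

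The genes that receive and carry the M1 signal were set beside the markers, in a list of 20 (receptors, JAK and STAT proteins, interferon regulatory factors and TLR4 components). The list was chosen with earlier results of these data known. Its share of calls beside that of all genes is therefore a description and no test. Under LPS 8 of the 20 rose and none fell (40% called, beside 14.9% of all genes), with a median of 0.33. Among them were STAT2 (1.36, adjusted p = 3.14e-04), IRF7 (1.74, 6.6e-04) and IRF9 (1.02, 0.00325), which carry the interferon response. After correction 9 rose (45%, beside 21.1%), and before it 4 were called without LPS replicate 3. In LPS_ABS against LPS 2 rose and 6 fell before correction (40%, near the 35.6% of all genes, and 4 called without LPS replicate 1), and none rose and 4 fell after it (20%, beside 9.19%). The kinase JAK2 was lower by -1.15 (adjusted p = 0.00482; -0.56 and 0.0274 after correction). CD14, the LPS co-receptor, rose by 0.82 before correction (adjusted p = 0.00871) and was at 0.43 after it (adjusted p = 0.101), while IFNGR1, the interferon gamma receptor, went from -0.50 (adjusted p = 0.0162) to 0.07 (adjusted p = 0.716). In LPS_ABS against control 7 rose and 3 fell (50%, beside 33.8% of all genes), and 5 rose and none fell after correction (25%, beside 13%). CD14, which is also among the identity markers, was at 1.65 (adjusted p = 3.02e-04) and after correction at 1.29 (4.18e-04), and STAT2 at 1.07 (adjusted p = 0.00107) and 0.91 (0.0033).

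The corresponding list for M2 signals, chosen with the same knowledge and likewise only described, held 20 genes, 19 of them tested. Under LPS 3 rose and 1 fell (21.1% called, beside 14.9% of all genes), with a median of 0.21, and after correction 4 rose and 1 fell (26.3%, beside 21.1%). The receptor subunit IL4R fell by 0.92 (adjusted p = 0.00589). Those that rose were CEBPB (1.49, adjusted p = 4.5e-04), KDM6B (1.20, 0.00399) and the receptor IL10RA (0.61, 0.0356). CEBPB, a transcription factor, and KDM6B, a histone H3 demethylase, are also known as genes that LPS itself induces. In LPS_ABS against LPS 6 rose and 2 fell before correction (42.1%, near the 35.6% of all genes, and 5 called without LPS replicate 1 or 3), led by IL4R (0.85, adjusted p = 0.00683) and the glucocorticoid receptor NR3C1 (-0.75, adjusted p = 0.00686; -0.13 and 0.455 after correction). After correction 1 of the 19 passed (5.26%, beside 9.19% of all genes), IL10RB at 0.63 (adjusted p = 0.0111), which had been at 0.02 (adjusted p = 0.876) before it, and IL4R stood at 0.48 (adjusted p = 0.0565). In LPS_ABS against control 8 rose and 1 fell (47.4%, beside 33.8%), and after correction 5 rose and none fell (26.3%, beside 13%). CEBPB was at 1.81 (adjusted p = 2.58e-04) and after correction at 1.39 (3.75e-04), and KDM6B at 1.92 (adjusted p = 3.11e-04) and 1.53 (2.91e-04).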

How the data were processed

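RNA of 9 libraries was measured, 3 each of control, LPS and LPS_ABS, and samples were grouped by the labelled treatment. TRIzol extraction and 2 library kits (TruSeq Stranded mRNA, VAHTS Universal V5) are listed for every sample per the labels' protocols, which do not say which kit made the libraries. The tools HISAT2, HTSeq, fastp, DESeq2 and R 3.2.0 are listed per the submitters' processing notes, with neither their roles nor their order. Genome build, annotation and strand setting are not given in the sources used here. The authors deposited raw read counts per gene. The authors also deposited FPKM values, which equalled the counts scaled by library total and by a gene length that was the same in all libraries.

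Counts were tested with edgeR 4.0.16 (quasi-likelihood F test, filterByExpr, TMM scaling, all 9 libraries in 1 fit of 3 group means). CPM values use the TMM-scaled library sizes. The GC correction was an offset per gene and library from a lowess curve (span 0.3) over the GC content of each gene's longest coding transcript in GENCODE, known for 99.3% of genes. The scripts were tested on simulated data. Alternatives were other scalings, DESeq2 1.42.0, no filter, only the groups compared, a replicate block and leaving out each library. The markers and pathway lists were chosen with earlier results of these data known. Values in every library are given for markers called in at least 1 comparison, and up to 4 called genes of each pathway list are named by smallest adjusted p, except an item that is not reported here. Some others were named after their values were seen. Marker levels between genes were compared by FPKM only, and all deposited columns were used.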

Additional observations from a re-analysis of the deposited data

How the results depend on the processing

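Of 1556 recomputed values of the tested markers, 1460 kept their side of the threshold, 40 lost a call, 55 gained one and 1 reversed. Of values called in neither fit, 69 changed sign. The reversed value was CD38 in LPS_ABS against control (0.37, edgeR adjusted p = 0.0442, with GC correction and replicate block). Among pathway genes, LPS_ABS against LPS turned to 0.072, 0.071 and 0.10 for IFNGR1 and to 0.15, 0.15 and 0.12 for HIF1A, under GC correction alone, with the replicate block and without LPS_ABS replicate 3. Same-numbered libraries, each taken as the deviation from its group mean, correlated at -0.0352 to 0.203, and 3 of 9 pairs exceeded 0.1. Whether replicate numbers pair the libraries cannot be told from these values. The replicate block alone called 2 M1-type genes in LPS against control. Scaling by total counts moved the median of all genes from 0.02 to -0.09 in LPS_ABS against LPS and the share of calls that were higher from 47.2% to 32.6%. In LPS_ABS against control these went from 0.05 to -0.08 and from 43.8% to 26.7%, and in LPS against control the share went from 51.7% to 46.4%. It called 2 M1-type genes in LPS_ABS against LPS.

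In LPS against control, a fit of the 2 groups alone called 3245 of all genes, 3 M1-type and 7 M2-inducing genes. DESeq2 called 3 M1-type genes, the unfiltered fit 2, GC correction 3, GC correction with the block 4, and GC correction without LPS_ABS replicate 3 called 4 and 3619 of all genes. In LPS_ABS against LPS, the fit of 2 groups called 3042 of all genes, 5 M1-inducing genes and 0 M2-type genes by edgeR (4 of 13 tested at an unadjusted p under 0.05), ALOX15 being removed there by the filter on low counts. On all 9 libraries DESeq2 called 6 M2-type genes and edgeR 3, and DESeq2 also called more of all genes. GC correction called 1192 of all genes, 4 M1-inducing and 1 M2-inducing gene, with the block 1411, 5 and 2, and without LPS_ABS replicate 3 729, 4 and 1, with 2 M1-type genes and 1 M2-type gene. In LPS_ABS against control, GC correction called 1686 of all genes, 4 M1-type, 5 M1-inducing and 5 M2-inducing genes, with the block 1762, 5, 6 and 5, and without LPS_ABS replicate 3 2613 of all genes and 5 M1-type genes. The causes were not tested.

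Leaving out each library in turn gave these ranges of calls. In LPS against control they were 873 to 2710 of all genes, 1 to 3 M1-type, 1 to 4 M2-type, 4 to 10 M1-inducing and 3 to 6 M2-inducing genes. In LPS_ABS against LPS they were 2360 to 4918, 1 to 3, 1 to 4, 4 to 8 and 5 to 9. In LPS_ABS against control they were 2351 to 4793, 2 to 4, 3 to 6, 8 to 12 and 6 to 11.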
